A study of Rattus norvegicus with 23 samples.

Results

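Fatty acid oxidation was followed through 45 rat genes: 18 of mitochondrial β-oxidation and its carnitine shuttle, 6 of fatty acid activation and carnitine conjugation, 11 enzymes and transporters of the peroxisome, and 10 peroxins, the proteins that build the peroxisome. The genes were taken by name and not by their values, and each was read from the probe set that names that gene alone, with the highest mean over the 23 arrays where there was a choice, as for 16 genes. All 45 were found among 14218 such genes of the series, and all were tested without a filter on low values. RNA came from primary rat liver cells in 8 groups of cell type and culture. Liver sinusoidal endothelial cells (LSECs) came from the 3DHLK model, a stack of hepatocytes, LSECs and Kupffer cells (KCs) held apart by a detachable polymer film, and from the 3DHL model, which lacks KCs (n = 3 arrays each). KCs, the resident macrophages of the liver, came from the 3DHLK model (n = 2) and from monolayers (n = 3). Hepatocytes came from 3DHLK, 3DHL, collagen sandwiches (CS) and hepatocyte monolayers (HM), with n = 3 each. The KC monolayers were sampled at day 3 and every other group at day 12. Hepatocytes were from female Lewis rats, LSECs were obtained from the same isolations, and KCs were bought as cryopreserved cells. The non-parenchymal cells of the 3D models were separated with beads that carry antibodies to SE-1, a surface antigen of LSECs, or to CD163, a macrophage receptor. Whether the arrays of a group stand for different animals or cultures is not in the labels, and every p-value here rests on array-to-array spread alone, which may be technical.

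Fatty acids are activated to acyl-CoA, passed into mitochondria as carnitine esters and shortened there by cycles of dehydrogenation, hydration, oxidation and thiolysis, with the electrons handed to the respiratory chain. Peroxisomes begin the breakdown of very long and branched chains, whose shortened products then go to mitochondria. In liver both pathways are known targets of the nuclear receptor PPARα, which pairs with a retinoid X receptor, and hepatocytes are the cell type known for them.

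Every value is on the log2 scale of the authors' RMA summary of a probe set, so that 1 unit is a factor of 2 in signal. Replicate arrays correlated at 0.987 to 0.998 in 7 groups and at 0.942 to 0.969 in the KC monolayers, and the median SD of the 45 genes was 0.0856 to 0.174 in those 7 groups against 0.341 in the KC monolayers. The labelled cell types were set against marker lists. The mean level of 22 hepatocyte markers was 13.16 in LSECs of 3DHLK, 12.88 in LSECs of 3DHL and 12.42 in KCs of 3DHLK, beside 12.61 to 13.28 in the hepatocyte groups and 7.49 in the KC monolayers. Alb, the gene of serum albumin, was at 14.53, 14.51 and 14.38 in these LSEC and KC fractions, beside 14.49 to 14.57 in hepatocytes. The 17 endothelial markers averaged 6.22 in LSECs of 3DHLK and 6.10 in LSECs of 3DHL. In hepatocytes they averaged 6.38 in 3DHLK, 5.98 in 3DHL, 6.15 in CS and 5.90 in HM. Stab2, a scavenger receptor that defines LSECs, was at 5.98 and 5.85 in the 2 LSEC groups, beside 5.46 to 5.87 in hepatocytes. Of 18 macrophage markers, the mean was 12.32 in KC monolayers but 6.75 in KCs of 3DHLK, where Adgre1, the gene of the F4/80 antigen, was at 5.38, beside 12.91 in the monolayers. The LSEC and KC fractions of the 3D models thus carried hepatocyte markers near hepatocyte levels, with their own defining markers near the levels in hepatocytes, and values below are those of the fractions so labelled. In bulk RNA, fewer cells of a type and less RNA per cell cannot be told apart.

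Promoters were read because PPARα and its partner receptor are known to bind a direct repeat of the core motif AGGTCA with 1 base between the copies. RefSeq (build GRCr8) gave 300 bases, 250 before to 50 after the start, for 40 of the 45 genes. The repeat was in 0 of 40 on either strand, against 16 of all 27457 promoters (0.0583%), and with the fourth base of each core motif free in 0 of 40, against 113 (0.412%). At shares this low any 40 promoters would be likely to hold no match, so 0 of 40 does not set these genes apart. Bases outside these 300 were not searched. A single core motif, searched after the repeat had given no match, was in 8 of 40 (20.0%), against 4305 of all promoters (15.7%). These 8 were 4 of 15 mitochondrial and 4 of 11 peroxisomal genes, with 0 of 6 activation genes and 0 of 8 peroxins. The stretches upstream of the start are shown because they set both compartments side by side, with the core motif in capitals, each read on the strand that carries it. The matches in Hadhb and Eci2 lay after the start and are not shown. A match describes these letters and says nothing of binding.
Acadvl (chr10:55236857-55236886, minus strand): atggatcaccctAGGTCAagtagaatacag
Acadvl (chr10:55236705-55236734, minus strand): agacgggagaagAGGTCAgtggtcaaggct
Echs1 (chr1:204333582-204333611, minus strand): atcaccccgcccAGGTCAcgggtacatccc
Eci1 (chr10:13961144-13961173, minus strand): ccgcccttcaggAGGTCAagatcagccagt
Amacr (chr2:61673122-61673151, plus strand): accggagaccaaAGGTCAgcagctaaacct
Cat (chr3:110329678-110329707, minus strand): tgtgactctcagAGGTCAgagagcaccgcc
Hsd17b4 (chr18:45515359-45515388, plus strand): cccgaaaccaccAGGTCActtgtttgtgtc

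Over the 8 groups the genes differed most for Phyh, the peroxisomal hydroxylase of phytanic acid, whose group means spanned 4.28, and least for the peroxin Pex3, which spanned 0.485. The median span was 1.68. Part of these spans came from the KC monolayers, where Phyh was at 9.16, 8.81 and 8.46, beside 11.67 to 13.2 on all other arrays. Without that group Hadhb spanned 0.419 instead of 1.75 and Etfa 0.422 instead of 1.63, while Cpt1a kept its 2.99. The centred mean of 17 housekeeping genes was -0.40 in KC monolayers, beside -0.0142 to 0.122 in the other groups. CS hepatocytes had the highest mean of 9 of the 18 mitochondrial genes, and KC monolayers had the lowest of 13. Among the other 7 groups, KCs of 3DHLK had the lowest of 13. The means of the mitochondrial and peroxisomal enzymes lay close to each other in most groups. With each gene centred on the mean of its 8 group means, the mitochondrial list averaged 0.35 ± 0.050 in LSECs of 3DHLK and the peroxisomal list 0.35 ± 0.055 (SD over arrays, n = 3), while in LSECs of 3DHL the 2 lists averaged -0.20 ± 0.069 and -0.15 ± 0.073. KCs of 3DHLK had -0.54 ± 0.080 and -0.44 ± 0.014 (n = 2), and KC monolayers had -1.15 ± 0.31 and -1.32 ± 0.26. In hepatocytes the mitochondrial and peroxisomal means were 0.37 and 0.435 in 3DHLK, 0.43 and 0.34 in 3DHL, 0.65 and 0.68 in CS, and 0.0856 and 0.11 in HM. Between hepatocytes of 3DHLK and 3DHL the list means thus went opposite ways, with a mitochondrial minus peroxisomal change of -0.155. The arrays overlapped in each list, at 0.298 to 0.457 against 0.401 to 0.476 (mitochondrial) and 0.289 to 0.524 against 0.292 to 0.398 (peroxisomal). The difference of the 2 lists ran over -0.174 to 0.00916 in 3DHLK, against 0.0603 to 0.128 in 3DHL. With 1 array left out at a time the change was -0.193 to -0.102. The mitochondrial minus the peroxisomal mean lay between -0.0937 and 0.0886 in 7 groups and was 0.17 ± 0.12 in the KC monolayers, the most variable group. These are descriptions of lists chosen by name, with earlier results of these data known, and carry no test.

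**Figure D1:**
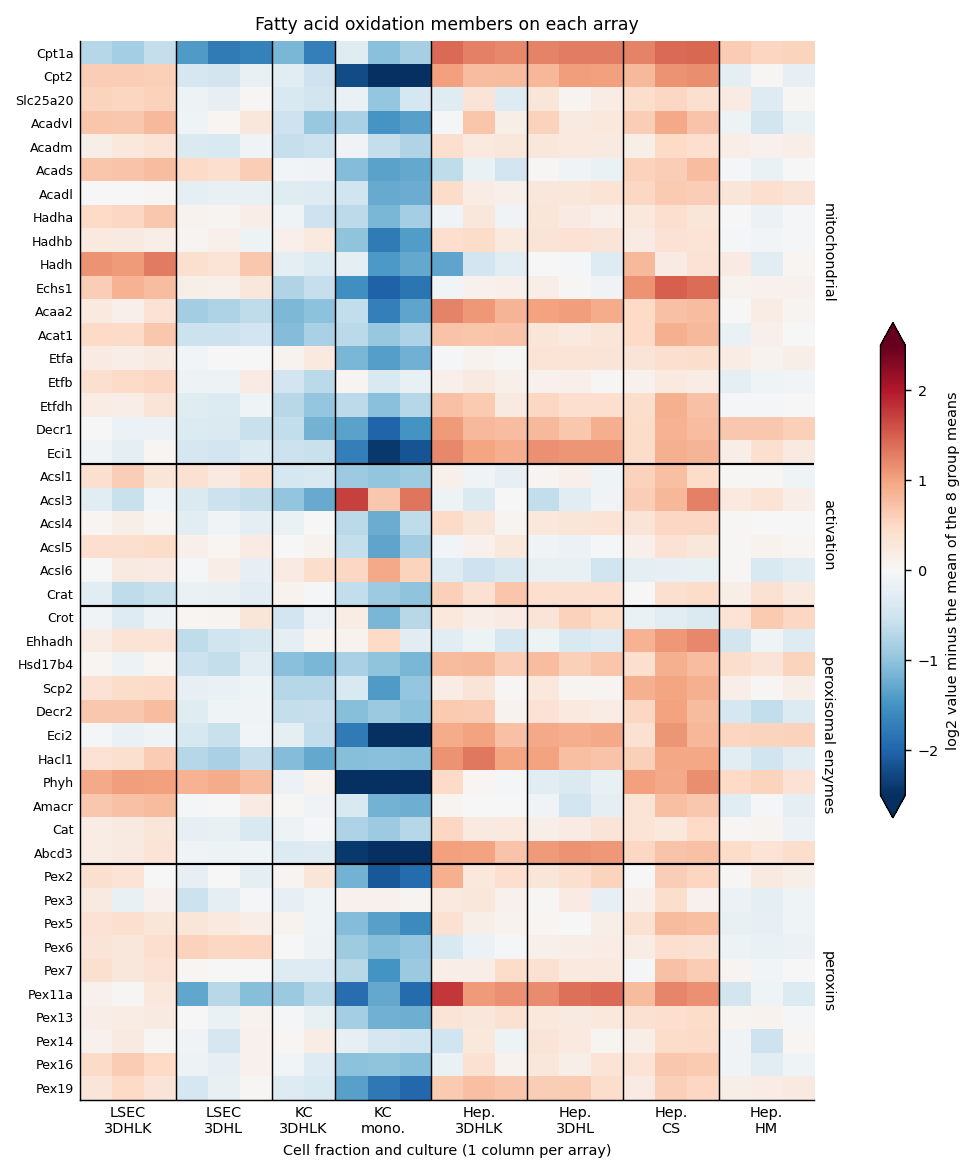
Log2 value of each of the 45 genes (rows, by class) on each of the 23 arrays (columns, by group), minus the mean of that gene's 8 group means; red is above and blue below that mean, and the colour scale ends at 2.5 either way. The KC monolayers are blue for most genes (lowest group mean for 13 of 18 mitochondrial genes), and Cpt1a separates the LSEC and KC fractions from the hepatocytes.

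**Figure D2:**
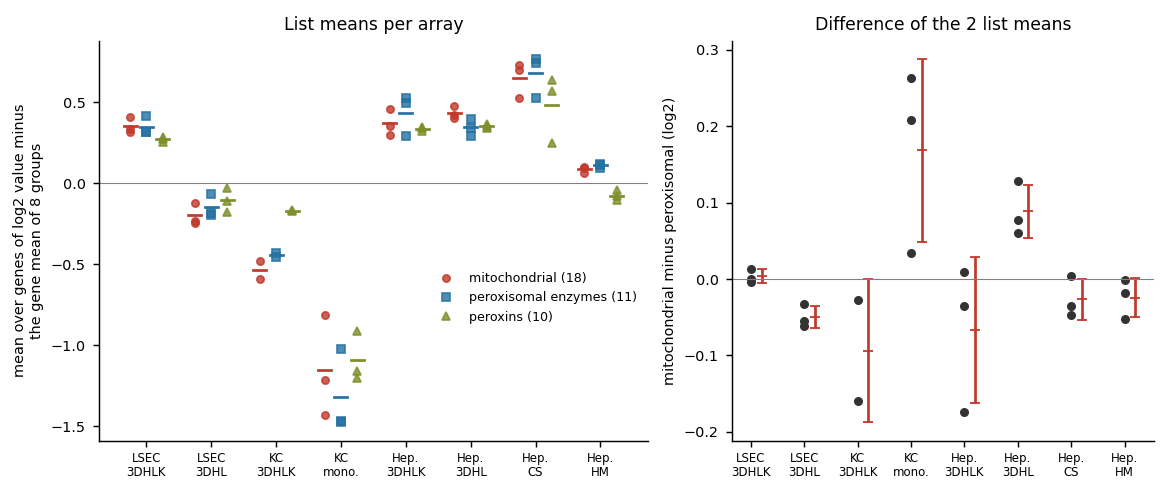
Left, mean over the genes of a list of the centred log2 value, 1 point per array and a line at the group mean, for the mitochondrial, peroxisomal enzyme and peroxin lists; right, the mitochondrial minus the peroxisomal mean per array, with the group mean and its SD. Both enzyme lists are lowest in the KC monolayers and highest in CS, and the mitochondrial minus peroxisomal difference stays between -0.0937 and 0.0886 on average outside the KC monolayers.

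LSECs of 3DHLK were compared with LSECs of 3DHL to see what the addition of KCs to the model went with. Of the 45 genes, 21 rose and 0 fell (limma, Benjamini-Hochberg adjusted over 14218 genes, threshold 0.05). At this adjusted threshold 7.47% of all genes were called, 3.58% higher and 3.89% lower. At an unadjusted p under 0.05, 27 of the 45 rose and 0 fell, and no share of all genes is given for unadjusted p. The median log2 change of the 45 was 0.39, against 0.0439 over all genes. Both compartments were among the risen genes, with 11 of 18 mitochondrial genes (median 0.50), 7 of 11 peroxisomal enzymes (median 0.50) and 3 of 10 peroxins (median 0.32), but 0 of 6 activation genes passed (median 0.185, with 1 of 6 at an unadjusted p under the threshold). All 3 LSEC arrays of 3DHLK lay above all 3 of 3DHL for 36 of the 45 genes and below for 2, where 21.9% and 15.4% of all genes did so.

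Entry into mitochondria goes through carnitine palmitoyltransferase 1, and Cpt1a is its liver form. Cpt1a was at 9.80, 9.66 and 9.91 in LSECs of 3DHLK, against 9.09, 8.74 and 8.82 in LSECs of 3DHL. The groups did not overlap, and the change was 0.91 ± 0.16 (SE), or 1.88-fold (adjusted p = 0.000722). Cpt2, which turns the carnitine ester back to acyl-CoA inside the mitochondrion, rose by 0.97 ± 0.15 (adjusted p = 0.000143), and Slc25a20, the carrier between the 2 transferases, by 0.65 (adjusted p = 0.0246). Of the acyl-CoA dehydrogenases, which take the first step for chains of different length, Acadvl (0.65) and Acadm (0.53) rose, and Acads (0.22, adjusted p = 0.319) and Acadl (0.21) did not pass. Acadm was at 10.49, 10.59 and 10.67, against 9.97, 9.95 and 10.25 in LSECs of 3DHL, again without overlap, with an adjusted p of 0.0201. That call was lost without LSECs of 3DHL replicate 1 or 2, or LSECs of 3DHLK replicate 2 or 3, where its adjusted p was 0.0731 to 0.101.

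Of the later steps, Acat1 and Acaa2 rose most. Acat1, which splits acetoacetyl-CoA and also serves ketone bodies, rose by 1.06 ± 0.12 (2.09-fold, adjusted p = 4.61e-06), and Acaa2, the medium-chain thiolase, by 1.01 ± 0.18 (adjusted p = 0.00103). The hydratase gene Echs1 (0.57), the trifunctional protein subunit Hadha (0.45) and the electron carriers Etfb (0.48) and Etfdh (0.48) rose as well. Hadhb, the trifunctional protein subunit with the thiolase (0.19), Hadh (0.69 ± 0.26, adjusted p = 0.122), Etfa (0.22) and the auxiliary enzymes of unsaturated chains Decr1 (0.33) and Eci1 (0.32) did not pass. For Hadha, the other probe sets of the gene were not called in this comparison, and for Hadh another probe set was, at 0.57.

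In the peroxisome, the change of Hacl1 was the largest of the 45. Hacl1 cleaves 2-hydroxy acyl-CoA in the α-oxidation of branched chains, and it was at 9.18, 9.22 and 9.46 in LSECs of 3DHLK, against 8.12, 8.02 and 8.25 in LSECs of 3DHL. This was a change of 1.16 ± 0.13 without overlap (2.24-fold, adjusted p = 4.61e-06). Ehhadh, the peroxisomal bifunctional enzyme, was at 7.53, 7.70 and 7.71, against 6.73, 6.86 and 6.95, a change of 0.80 ± 0.16 (adjusted p = 0.00247). Every 3DHLK array was higher, although the gene was among the dimmest of the enzymes. Cat, the catalase that removes the hydrogen peroxide made there, was at 12.86, 12.89 and 12.98, against 12.46, 12.49 and 12.28, a smaller change of 0.50 ± 0.11 with no overlap (adjusted p = 0.00542). Decr2 (0.87), Amacr (0.68), Scp2 (0.60) and Hsd17b4 (0.45) rose, and Abcd3, the membrane transporter PMP70 (0.35), Eci2 (0.25), Phyh (0.15) and the carnitine octanoyltransferase Crot (-0.32) did not pass.

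Among peroxins, Pex11a, which takes part in peroxisome division, rose by 1.16 ± 0.20 (adjusted p = 0.000566), with 9.52, 9.44 and 9.69 in LSECs of 3DHLK, against 8.11, 8.72 and 8.35 in LSECs of 3DHL. Pex16 (0.62) and Pex19 (0.57), both needed to place membrane proteins, rose too. A second probe set of Pex16 gave 0.17 and was not called. Pex2, Pex3, Pex5, Pex6, Pex7, Pex13 and Pex14 lay between -0.20 and 0.39 and did not pass. Acsl4, a synthetase that prefers arachidonate, stood for the activation genes with 11.40, 11.50 and 11.40, against 11.09, 11.26 and 11.12. The arrays did not overlap, but the change of 0.28 ± 0.14 did not pass (adjusted p = 0.268), nor did Acsl1, Acsl3, Acsl5, Acsl6 and Crat, between -0.27 and 0.31.

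Without LSECs of 3DHL replicate 1 or 2, or LSECs of 3DHLK replicate 2 or 3, the count of 21 was 11, 12, 11 and 12, all of them higher. With each array left out in turn 10 of the 21 calls held every time, and those of Slc25a20, Acadvl, Acadm, Echs1, Hadha, Etfb, Etfdh, Amacr, Scp2, Hsd17b4 and Pex19 were lost at least once (adjusted p = 0.0523 to 0.187). Without the KC monolayers in the fit, 25 rose and 1 fell, and the share of all genes called in that fit is not given. Of the hepatocyte markers 3 of 22 also rose (median 0.24), and their mean level was 13.12 to 13.19 over arrays of LSECs of 3DHLK, against 12.87 to 12.88 in LSECs of 3DHL. Macrophage markers ranged over 6.52 to 6.75, against 6.31 to 6.39, and 1 of 18 rose. Of 17 endothelial markers 1 rose and 1 fell, and of 19 stellate cell and fibroblast markers 1 rose and 2 fell. The part of these markers in the result was not tested.

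Hepatocytes of 3DHLK differed less from those of 3DHL for these genes. Only Acat1 rose (0.42 ± 0.12, adjusted p = 0.0194), and 2 fell, the peroxin Pex6 (-0.34 ± 0.10, adjusted p = 0.0340) and Etfa, a subunit of the electron transfer flavoprotein (-0.30 ± 0.094, adjusted p = 0.0444), where 11.5% of all genes were called, 7.72% higher and 3.76% lower. Acat1 was at 10.31, 10.29 and 10.32 in hepatocytes of 3DHLK, against 9.90, 9.84 and 9.91 in those of 3DHL. The median change was 0.0249, against -0.0799 over all genes. Cpt1a was at 11.94, 11.77 and 11.72, against 11.76, 11.80 and 11.80, so that the groups overlapped (0.0249 ± 0.16). Hacl1 was at 9.95, 10.13 and 9.81, against 9.82, 9.57 and 9.54, and its change of 0.32 did not pass (adjusted p = 0.119). Under cyclic loess the calls of Pex6 and Etfa were lost (adjusted p = 0.0709 and 0.115) and Hacl1 was called, at 0.40, and with the mean of its probe sets Acat1 did not pass (adjusted p = 0.101). With only the arrays compared in the fit Pex6 and Etfa did not pass either (adjusted p = 0.0752 and 0.0590), nor did Etfa with housekeeping centring (adjusted p = 0.0504). No call of the 3 held when each array was left out in turn. The count was 0 without hepatocytes of 3DHL replicate 1 or 2 or of 3DHLK replicate 1, and 1 without 3DHL replicate 3. Beside these values, 13 of 18 macrophage markers rose (list mean 7.55 to 7.95 over arrays of 3DHLK, against 6.43 to 6.76 in 3DHL), as did 13 of 19 stellate cell and fibroblast markers (10.25 to 10.43, against 8.24 to 8.43). Of 17 endothelial markers 5 rose (6.35 to 6.43, against 5.93 to 6.05), among them the receptor genes Flt1 (2.31), Tek (2.29) and Eng (1.71), and of 22 hepatocyte markers 2 rose and 1 fell. The part of these markers was not tested.

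The 2 changes were then compared directly, as the LSEC change minus the hepatocyte change between the models. This difference was positive for 14 of 45 genes and negative for 0 at the adjusted threshold, where 10.3% of all genes were called, 3.51% positive and 6.81% negative. At an unadjusted p it was positive for 24 and negative for 1, again without a share of all genes. The median was 0.41, against 0.11 over all genes. Of the 14, 9 were mitochondrial, 3 peroxisomal enzymes and 2 peroxins, and 0 of 6 were activation genes (at an unadjusted p, 0 positive and 1 negative). The largest were Hadh, a 3-hydroxyacyl-CoA dehydrogenase (1.26 ± 0.37, adjusted p = 0.0309), Pex11a (1.15 ± 0.28, adjusted p = 0.00894) and Cpt2 (1.08 ± 0.21, adjusted p = 0.00116). Acaa2 (0.95), Slc25a20 (0.94) and Cpt1a (0.88 ± 0.22, adjusted p = 0.0125) followed. Hadh was at 8.60, 9.46 and 9.66 in hepatocytes of 3DHLK, against 9.92, 9.89 and 9.61 in those of 3DHL. Replicate 1 of hepatocytes of 3DHLK was the lowest of these. Without it the difference for Hadh was 0.94 (adjusted p = 0.0931), and its call was also lost without 7 other arrays taken singly (adjusted p = 0.0505 to 0.0931 over all 8), while another probe set of Hadh gave 0.67 (adjusted p = 0.0352). The call of Slc25a20 was lost without hepatocytes of 3DHL replicate 1 or of 3DHLK replicate 1 or 3, and that of Acaa2 without hepatocytes of 3DHLK replicate 3, LSECs of 3DHL replicate 1 or LSECs of 3DHLK replicate 3 (adjusted p = 0.0504 to 0.0632). The count of 14 was 8 without hepatocytes of 3DHL replicate 1, hepatocytes of 3DHLK replicate 3 or LSECs of 3DHL replicate 1, 9 without LSECs of 3DHLK replicate 2 and 7 without LSECs of 3DHLK replicate 3. The call of Ehhadh (0.78) was lost without any 1 of 6 arrays (adjusted p = 0.0517 to 0.0826) and with housekeeping centring (adjusted p = 0.0577). Of the 14 calls 6, those of Cpt1a, Cpt2, Hacl1, Pex11a, Pex16 and Etfa, held with each array left out in turn. In the same contrast 9 of 18 macrophage, 8 of 19 stellate and 4 of 17 endothelial markers were called negative, and their part was not tested.

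**Figure D3:**
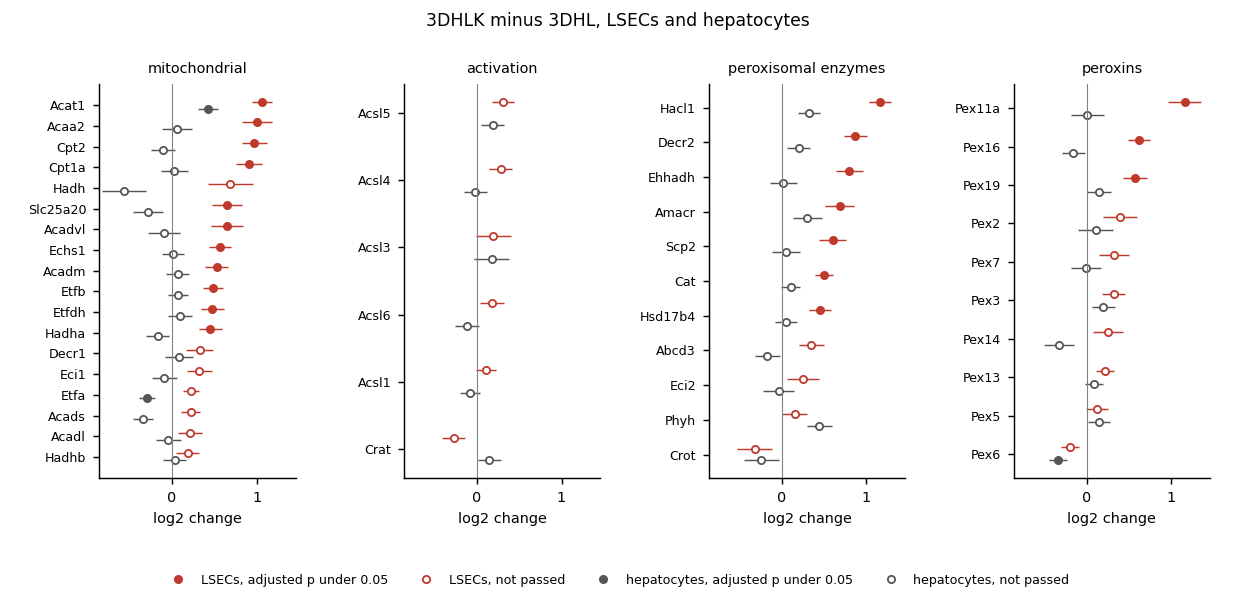
Log2 change between the 3DHLK and 3DHL models for each gene, by class, in LSECs (red) and hepatocytes (grey), with the standard error from limma and filled points where the adjusted p was under 0.05. The LSEC points lie right of 0 for all 18 mitochondrial genes and 21 in all are filled, against 3 filled hepatocyte points.

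Within a model, LSECs were set against hepatocytes to compare cell fractions. In 3DHLK, 15 of 45 genes were higher and 10 lower in LSECs, where 60.4% of all genes were called, 34.7% higher and 25.7% lower, and the median was -0.0895, against 0.11. In 3DHL, 4 were higher and 23 lower, where 40.4% of all genes were called, 18.5% higher and 21.9% lower, and the median was -0.34, against 0.0215. Both comparisons use their own arrays. Cpt1a was lower in LSECs in both models, at -2.02 ± 0.16 in 3DHLK (4.05-fold lower, adjusted p = 1.01e-09) and -2.90 ± 0.16 in 3DHL (7.47-fold lower, adjusted p = 1.37e-11), with no overlap of arrays. Pex11a was lower too (-1.19 in 3DHLK and -2.34 in 3DHL), as were Hacl1 (-0.68 and -1.52), the isomerases Eci1 (-1.12 and -1.53) and Eci2 (-0.99 and -1.28), Decr1 (-0.97 and -1.22), and the carnitine acetyltransferase Crat (-1.04 and -0.62). Acaa2 (-1.75) and Cpt2 (-1.33) were among the 6 lowest in 3DHL. Abcd3, at 12.21, 12.24 and 12.36 in LSECs and 13.05, 13.03 and 12.74 in hepatocytes of 3DHLK, was lower there (-0.67) and in 3DHL (-1.19). A dim second probe set of Eci1 went the other way in 3DHLK, and other probe sets of Acaa2 and Pex11a were not called there.

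Higher in LSECs of 3DHLK were Hadh (1.85 ± 0.26, adjusted p = 4.64e-06), Acads, the short-chain dehydrogenase (1.15 ± 0.12, adjusted p = 4.82e-08), Phyh (0.84), Amacr, the racemase of branched acyl-CoA (0.71), Echs1 (0.70) and Slc25a20 (0.65). Another probe set of Hadh gave 0.30 and was not called. Phyh was at 12.98, 13.08 and 13.07 in LSECs, against 12.52, 12.09 and 12.00 in hepatocytes of 3DHLK, and at 12.90, 12.96 and 12.82, against 11.76, 11.67 and 11.86, in 3DHL. Phyh, Acads and Pex6 were higher in LSECs of 3DHL too, as was Acsl1 by 0.30, a call lost without LSECs or hepatocytes of 3DHL replicate 1 or 3 (adjusted p = 0.0685 to 0.180). Neither compartment was uniformly high or low: 7 mitochondrial genes were higher and 4 lower in 3DHLK, beside 3 and 4 peroxisomal enzymes. Acadm (-0.0656) and Cat (-0.0895) did not pass in 3DHLK, and were lower in LSECs of 3DHL (-0.53 and -0.49). Ehhadh was higher in LSECs of 3DHLK (0.56) and did not pass in 3DHL (-0.23). In LSECs, hepatocyte markers were called higher for 11 of 22 in 3DHLK and 7 of 22 in 3DHL, and stellate markers lower for 16 and 11 of 19 (list mean 6.54 to 6.86, against 10.25 to 10.43 in hepatocytes of 3DHLK). In 3DHL 2 hepatocyte markers, Apoa2 (-0.59) and Rbp4 (-0.63), were lower. Macrophage markers were lower in LSECs for 14 of 18 and higher for 1 in 3DHLK (list mean 6.52 to 6.75, against 7.55 to 7.95), and lower for 4 and higher for 2 in 3DHL. Of 17 endothelial markers 8 were higher and 4 lower in LSECs of 3DHLK, and 2 higher and 1 lower in LSECs of 3DHL. Their list mean was 6.22 to 6.24 in LSECs of 3DHLK, against 6.35 to 6.43 in hepatocytes of 3DHLK. In 3DHL it was 6.06 to 6.12 in LSECs, against 5.93 to 6.05 in hepatocytes. What part these markers had was not tested.

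**Figure D4:**
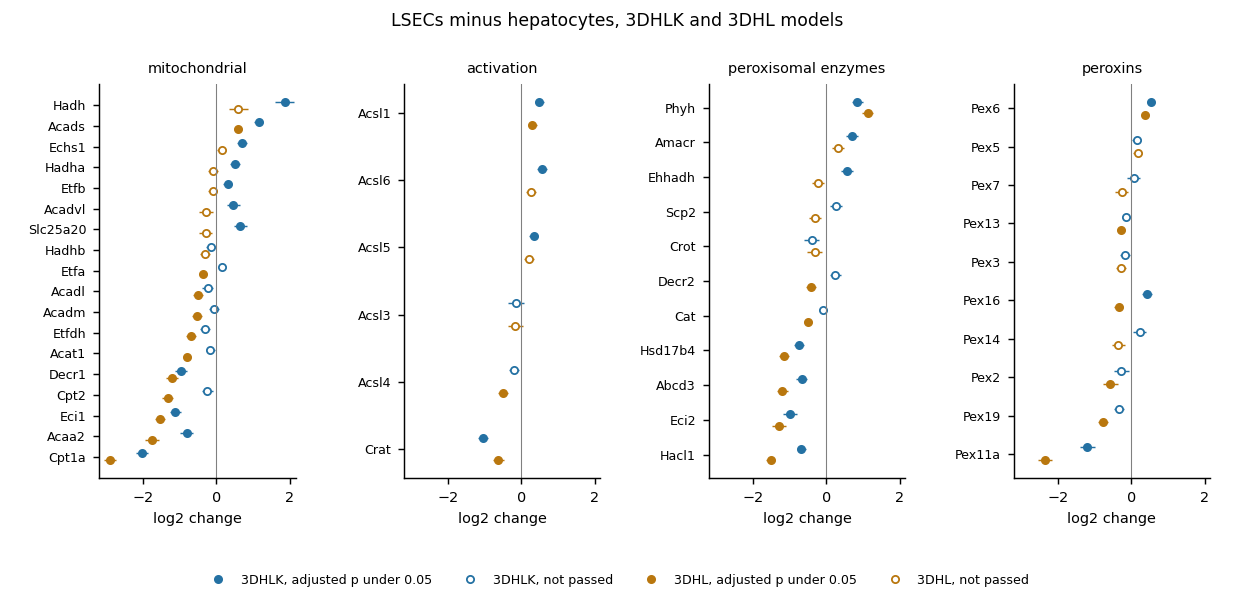
Log2 change of LSECs against hepatocytes for each gene, by class, in the 3DHLK model (blue) and the 3DHL model (orange), with the standard error from limma and filled points where the adjusted p was under 0.05. Cpt1a and Pex11a lie farthest left (-2.02 and -1.19 in 3DHLK, -2.90 and -2.34 in 3DHL), and Hadh, Acads and Phyh lie to the right.

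KCs of 3DHLK, with 2 arrays, had lower values than hepatocytes of 3DHLK for 28 of 45 genes and higher values for 2, where 56.5% of all genes were called, 25.9% lower and 30.6% higher. The median was -0.53, against 0.0653. Cpt1a was at 9.37 and 8.81 in KCs, against 11.94, 11.77 and 11.72 in hepatocytes, a difference of -2.72 ± 0.18 (adjusted p = 1.18e-10). Hacl1 was at 7.74 and 7.54, against 9.95, 10.13 and 9.81, a difference of -2.32 ± 0.14 (5.01-fold lower, adjusted p = 5.28e-11). Pex11a (-2.13), Acaa2 (-2.12), the multifunctional enzyme gene Hsd17b4 (-1.83) and Decr1 (-1.77) came next. In each the KC arrays lay below every hepatocyte array. Acadm, at 9.75 and 9.79, against 10.75, 10.58 and 10.61, was lower (-0.87). Cat, at 12.54 and 12.64, against 13.18, 12.90 and 12.91, was lower too (-0.41), and its call was lost without KCs of 3DHLK replicate 1 (adjusted p = 0.0647). Acsl4, at 11.18 and 11.37, against 11.83, 11.66 and 11.43, was lower (-0.37), a call lost without either KC array or hepatocytes of 3DHLK replicate 1 or 2 (adjusted p = 0.0612 to 0.256), or with only the arrays compared in the fit (adjusted p = 0.0782). Acsl6 was higher by 0.73 and Acads by 0.35. The call of Acads was lost without either KC array or without hepatocytes of 3DHLK replicate 1 or 3 (adjusted p = 0.0714 to 0.125), and with only the arrays compared in the fit (adjusted p = 0.0985). Of the 22 hepatocyte markers, 6 were lower and 1 higher in the KC fraction, and of the 19 stellate markers 15 were lower. Macrophage markers, too, were lower in the KC fraction for 12 of 18 and higher for 2, with a list mean of 6.60 and 6.90 in KCs, against 7.55, 7.72 and 7.95 in hepatocytes of 3DHLK, so that the fraction labelled KC carried less macrophage signal than the hepatocytes. Endothelial markers were higher for 13 of 17 and lower for 4. The part of these markers was not tested.

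LSECs had higher values than KCs within 3DHLK for 28 of 45 genes and a lower value for 1, Crat (-0.51), where 15.1% of all genes were called, 9.73% higher and 5.35% lower, with a median of 0.73 against -0.0192. Mitochondrial genes made up 14 of the 28 and peroxisomal enzymes 7. Hacl1 (1.65 ± 0.14, adjusted p = 3.37e-08), Acat1 (1.49), Hadh (1.46), Acadvl (1.45), Echs1 (1.41) and Acaa2 (1.31) led. Cpt1a was higher by 0.70 ± 0.18 (adjusted p = 0.00799), and by 0.42 without KCs of 3DHLK replicate 2, where the call was lost (adjusted p = 0.268). The call of Crat was lost without LSECs of 3DHLK replicate 2 or 3 or either KC array (adjusted p = 0.0810 to 0.169). Hepatocyte markers were higher in LSECs for 15 of 22 (list mean 13.12 to 13.19, against 12.39 to 12.46 in KCs). Endothelial markers went against the labels, with 9 of 17 lower in LSECs and 0 higher (list mean 6.22 to 6.24, against 6.70 to 6.77 in KCs), among them Lyve1, a hyaluronan receptor of LSECs (-2.06), and Esam (-1.18). At an unadjusted p under the threshold 12 were lower and 0 higher, with no share of all genes given. Of the macrophage markers 2 of 18 were lower in LSECs. What part these markers had was not tested.

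KCs of 3DHLK were compared with KC monolayers, which differ in day as well as in culture, so that day and culture cannot be told apart. Of the 45 genes, 30 were higher and 3 lower in 3DHLK, where 65.3% of all genes were called, 44.5% higher and 20.8% lower, with a median of 0.72 against 0.27. This split depended on the scaling: cyclic loess gave 19 higher and 11 lower (median 0.11), and centring on 17 housekeeping genes gave 17 and 13 (median 0.19), where it moved the median of all genes by -0.53. With only the arrays compared in the fit 22 were called, 21 higher and 1 lower. Phyh was at 11.89 and 12.12 in KCs of 3DHLK, against 9.16, 8.81 and 8.46 in monolayers, a difference of 3.19 ± 0.17 (9.16-fold, adjusted p = 2.46e-13). Abcd3 (2.58), Cpt2 (2.21), Pex2, a ligase of the peroxisomal import machinery (1.94), Eci2 (1.84) and Hadhb (1.57) followed, and none of their arrays overlapped between the groups. Lower were Acsl3, a synthetase of lipid droplets (-2.37 ± 0.23, adjusted p = 1.12e-08), Cpt1a (-0.70 ± 0.18) and Etfb (-0.40). Cpt1a was at 9.37 and 8.81, against 10.21, 9.48 and 9.69 in monolayers, and without KCs of 3DHLK replicate 2 the calls of Cpt1a and Etfb were lost (adjusted p = 0.0868 and 0.129), and with only the arrays compared in the fit both were lost too (adjusted p = 0.0799 and 0.235). Another probe set of Cpt1a gave -0.27 and was not called. Cat, at 12.54 and 12.64, against 11.89, 11.77 and 11.95, was higher by 0.72, but -0.0572 under cyclic loess (adjusted p = 0.709) and 0.19 with housekeeping centring (adjusted p = 0.200). Hacl1 did not differ at the threshold, at 7.74 and 7.54, against 7.76, 7.78 and 7.75, nor did Ehhadh, at 7.11 and 7.42, against 7.44, 7.86 and 7.08, or Acadm, at 9.75 and 9.79, against 10.25, 9.73 and 9.57. Under cyclic loess and housekeeping centring Acadm (-0.65 and -0.605) and Hacl1 (-0.435 and -0.65) were called lower, as was Ehhadh with housekeeping centring (-0.72). Acsl4 was at 11.18 and 11.37, against 10.68, 10.11 and 10.71, and higher by 0.77 ± 0.15, but only by 0.11 under cyclic loess and 0.25 with housekeeping centring, where it did not pass. All 22 hepatocyte markers were higher in KCs of 3DHLK, with a median of 5.15, and all 18 macrophage markers lower, with a median of -5.33. Of 17 endothelial markers 3 were higher and 5 lower, and 8 of 19 stellate markers were lower. Their part in the result was not tested.

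Among hepatocyte cultures, CS was compared with HM, which lacks the upper collagen layer. In CS 26 of 45 genes were higher and 1 lower, where 21.8% of all genes were called, 11.1% higher and 10.7% lower, and the median was 0.46, against 0.0430. The risen genes were 10 of 18 mitochondrial, 3 of 6 activation, 7 of 11 peroxisomal enzymes and 6 of 10 peroxins. Ehhadh was at 8.23, 8.44 and 8.56 in CS, against 6.89, 7.24 and 7.02 in HM, a rise of 1.36 ± 0.16 (2.57-fold, adjusted p = 1.86e-06). Its CS arrays were the highest of all 23. Hacl1 was at 9.41, 9.78 and 9.79, against 8.55, 8.33 and 8.56 (1.18 ± 0.13, adjusted p = 7.19e-07), and Cpt1a at 11.75, 11.93 and 11.95, against 11.16, 11.05 and 11.08 (0.78 ± 0.16, adjusted p = 0.00098), both without overlap. Another probe set of Cpt1a gave 0.32 and was not called. Pex11a (1.36), Echs1 (1.24), Decr2 (1.22) and Cpt2 (1.17) were also among the 6 largest rises, and Crot was lower (-0.77 ± 0.20, adjusted p = 0.00863). Acadm, at 10.49, 10.83 and 10.75, against 10.51, 10.45 and 10.51, overlapped and did not pass (0.20). Cat, at 13.02, 12.94 and 13.17, against 12.69, 12.73 and 12.53, rose by 0.39, and Acsl4, at 11.67, 11.87 and 11.87, against 11.39, 11.36 and 11.34, by 0.44. The call of Cat was lost without HM replicate 3 or CS replicate 3 (adjusted p = 0.0726 and 0.0762), and that of Acsl4 without any HM array or without CS replicate 2 or 3 (adjusted p = 0.0535 to 0.0905). Of the hepatocyte markers 8 of 22 rose in CS (list mean 13.25 to 13.31, against 12.79 to 12.83 in HM), as did 11 of 19 stellate markers, which varied widely within both groups (8.22 to 9.51, against 7.05 to 8.81), while 1 stellate marker fell. Of 17 endothelial markers 4 rose and 1 fell, and of 18 macrophage markers 1 fell. The part of these markers was not tested.

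Hepatocytes of 3DHL were compared with HM and with CS, and both comparisons share the 3DHL arrays. Against HM, 11 of 45 genes were higher and 1 lower, where 11.7% of all genes were called, 7.04% higher and 4.70% lower, with a median of 0.24 against 0.0138. Pex11a was higher by 1.62 ± 0.20 (3.08-fold, adjusted p = 7.07e-06), with 10.59, 10.79 and 10.83 in 3DHL, against 8.97, 9.30 and 9.07 in HM. Hacl1, at 9.82, 9.57 and 9.54, against 8.55, 8.33 and 8.56, was higher by 1.16, and Cpt2 (1.11), Acaa2 (0.90), Eci1 (0.85) and Decr2 (0.71) followed. Phyh was lower, at 11.76, 11.67 and 11.86, against 12.54, 12.60 and 12.41 (-0.76 ± 0.15, adjusted p = 0.00179). Cpt1a, at 11.76, 11.80 and 11.80, against 11.16, 11.05 and 11.08, was higher by 0.69 (adjusted p = 0.00614), but by 0.38 as the mean of its probe sets, which did not pass. Against CS, 2 genes were higher, Crot (0.72) and Abcd3 (0.43), and 11 lower, where 21.8% of all genes were called, 12.8% higher and 9.03% lower, with a median of -0.15 against -0.0150. The call of Abcd3 was lost without any of the 6 arrays taken singly (adjusted p = 0.0614 to 0.156), and that of Crot without CS replicate 3 or hepatocytes of 3DHL replicate 2. The count of 13 was 21 under cyclic loess (3 higher, 18 lower) and 20 with housekeeping centring (1 higher, 19 lower). Lower were Ehhadh, at 7.22, 6.97 and 7.03 in 3DHL, against 8.23, 8.44 and 8.56 in CS (-1.34 ± 0.16, adjusted p = 2.27e-06), Phyh (-1.33), Echs1 (-1.30), Acsl3 (-1.24), Amacr (-0.86) and Scp2 (-0.79). The arrays of these genes did not overlap. Hepatocyte markers were lower in 3DHL for 12 of 22 against CS and 5 of 22 against HM, where 1 was higher. Against CS, 3 of 18 macrophage markers were higher, 2 of 17 endothelial markers lower, and 2 of 19 stellate markers higher and 3 lower. Against HM, 1 macrophage and 1 stellate marker were higher, and 1 endothelial marker was higher and 1 lower. What part these markers had was not tested.

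**Figure D5:**
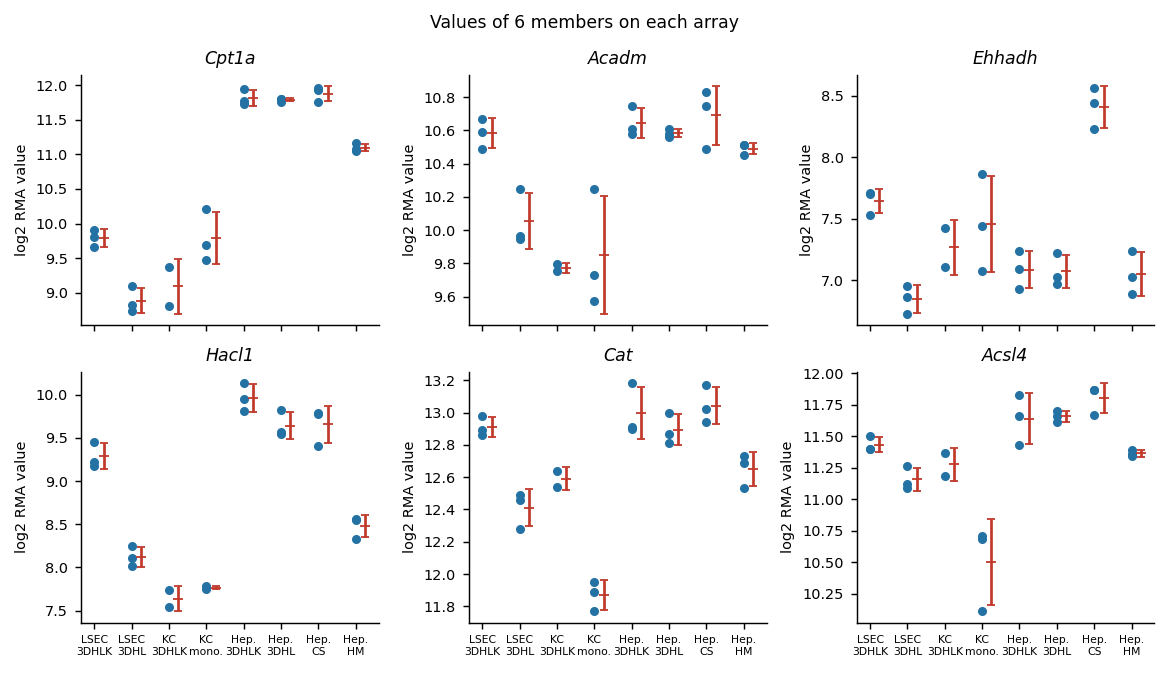
Log2 RMA value on each array (points) with the group mean and SD (red) for Cpt1a (mitochondrial entry), Acadm (first step), Ehhadh, Hacl1 and Cat (peroxisome) and Acsl4 (activation). Cpt1a is at 11.05 or more in every hepatocyte array and at 10.21 or less in every LSEC and KC array, while Ehhadh is highest in CS.

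Genes of the same pathways outside the 45 gave the following counts. In LSECs of 3DHLK against 3DHL, 7 of 25 further mitochondrial genes, 9 of 28 further peroxisomal genes and 3 of 12 transcriptional regulators rose, and 0 of each fell, with medians of 0.305, 0.395 and 0.30. The largest were Lpin1, a phosphatidate phosphatase and coactivator (1.54 ± 0.13, adjusted p = 1.3e-07), Acsm1, a medium-chain synthetase (1.18), and the hydrolase gene Nudt12 (1.11). Lpin1 averaged 11.31 in LSECs of 3DHLK, against 9.77 in LSECs of 3DHL. Of 23 subunits of the respiratory chain 3 rose, with a median of 0.28. Beside these counts, 3.58% of all genes were called higher and 3.89% lower in this comparison, with a median of 0.0439. In the direct comparison of the LSEC and hepatocyte changes, Lpin1 (1.38), Rxra (1.25) and Ppara (1.08 ± 0.24, adjusted p = 0.00407), the last 2 encoding the receptor pair named above, were called positive. Ppara averaged 8.85 ± 0.0927 in LSECs of 3DHLK, against 8.14 ± 0.21 in LSECs of 3DHL, and 8.37 ± 0.38 in hepatocytes of 3DHLK, against 8.73 ± 0.18 in those of 3DHL (SD, n = 3 each). Rxra averaged 10.95 and 10.15 in the LSECs of these models and 8.65 and 9.10 in their hepatocytes.

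Oxct1, the enzyme that uses ketone bodies and is known to be low in hepatocytes, moved apart from the other genes. Its mean was 5.92 ± 0.44 in LSECs of 3DHLK, 5.99 ± 0.21 in KCs of 3DHLK and 9.77 ± 0.21 in hepatocytes of 3DHLK, and 8.28 ± 0.12 in hepatocytes of 3DHL (SD, n = 2 for KCs and 3 otherwise). It was lower in LSECs than in hepatocytes of 3DHLK (-3.84 ± 0.18, adjusted p = 5.04e-13), and higher in hepatocytes of 3DHLK than of 3DHL by 1.49 ± 0.18 (adjusted p = 3.43e-06). In that comparison of hepatocytes macrophage, stellate and endothelial markers rose too, with the counts given above. The part of these markers in the value of Oxct1 was not tested. Acox2, the branched-chain acyl-CoA oxidase, was higher in LSECs than in hepatocytes in 3DHLK (2.09) and in 3DHL (1.39), and Slc27a2, a very-long-chain synthetase, was lower (-1.18 and -1.65). In CS against HM, Lpin1 (1.90), Acox2 (1.5) and Slc27a2 (1.34) led the rises, and Far1, which reduces acyl-CoA to fatty alcohol, fell most (-1.53).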

How the data were processed

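The log2 values were deposited after the authors' own processing with RMA in R, which corrects background, quantile normalizes and summarizes probes into probe sets, with array quality checked in Simpleaffy; the sources used here name no RMA version. RNA was amplified before labelling, and the values carry no detection calls. Of 31099 probe sets, 20832 named 1 gene, 436 several and 9831 none in the platform annotation, which left 14218 genes. Array medians were 7.41 to 7.53, and precision is limited by how many arrays there are. One limma model (version 3.58.1, R 4.3.3) was fitted over the 23 arrays with a mean per group, and 11 contrasts were tested with moderated statistics and Benjamini-Hochberg adjustment over all genes, at a threshold of 0.05. The members and lists were chosen with earlier results of these data known. Array values were given for Cpt1a, Acadm, Ehhadh, Hacl1, Cat and Acsl4, and changes for up to 6 members with the largest called changes in each direction. Of other pathway genes, up to 3 with the largest called changes were named, in some of the comparisons only. Alternatives were a replicate block, averaging a gene's probe sets, a filter at the 30th percentile, cyclic loess, centring on 17 housekeeping genes, trend and robust moderation, fewer arrays in the fit, and leaving out each array. Data were simulated for 14218 genes in a single draw per comparison and spread. In each, 50 genes were changed at each log2 size of 0.5, 1, 1.5 and 2, and the rest had no difference. For the LSEC comparison 88% of genes changed by 1 were called and 26% of those changed by 0.5, with 6.02% of calls false. With a spread of its own for each group, 10.9% of calls were false, and 18.6% for the hepatocyte comparison of 3DHLK with 3DHL. In the data 1062 and 1633 genes were called in these comparisons, so the simulated shares may not hold there. Motifs were searched on both strands with Python 3.11.15.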

Additional observations from a re-analysis of the deposited data

Results flagged for a closer look

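For 14 genes the change between the 3DHLK and 3DHL models differed between LSECs and hepatocytes in a test of that difference (limma interaction contrast, adjusted over 14218 genes). The LSEC change minus the hepatocyte change was 1.26 for Hadh, with 0.69 in LSECs and -0.57 in hepatocytes, 1.15 for Pex11a (1.16 and 0.00668), 1.08 for Cpt2 (0.97 and -0.105), 0.947 for Acaa2 (1.01 and 0.0584), 0.935 for Slc25a20 (0.65 and -0.28) and 0.883 for Cpt1a (0.91 and 0.0249). It was 0.84 for Hacl1 (1.16 and 0.32), 0.784 for Ehhadh (0.80 and 0.0135), 0.776 for Pex16 (0.62 and -0.16), 0.671 for Decr2 (0.87 and 0.20) and 0.639 for Acat1 (1.06 and 0.425). It was 0.619 for Hadha (0.45 and -0.17), 0.565 for Acads (0.22 and -0.35) and 0.518 for Etfa (0.22 and -0.295). With 1 array left out at a time, 6 of the 14 calls held every time. The call was lost without any 1 of 10 arrays for Hadha (adjusted p = 0.0514 to 0.107), of 8 for Acads (0.0562 to 0.0900) and Hadh (0.0505 to 0.0931), of 6 for Ehhadh (0.0517 to 0.0826) and Decr2 (0.0547 to 0.101), of 3 for Acaa2 and Slc25a20 (0.0504 to 0.0632), and without 1 for Acat1 (0.0517). With the mean of all probe sets Hadha (0.339) and Pex16 (0.0549) did not pass, nor did Decr2 under cyclic loess (0.0974). Adjusted p ran from 0.00116 for Cpt2 to 0.0396 for Hadha.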

How the results depend on the processing

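The count of genes called was 5 without the KC monolayers and 1 with only the arrays compared for hepatocytes of 3DHLK against 3DHL, 23 with only the arrays compared for hepatocytes of 3DHL against HM, and 21 under cyclic loess and 20 with housekeeping centring for hepatocytes of 3DHL against CS. Leaving out 1 array at a time gave 11 to 19 for LSECs of 3DHLK against 3DHL, 0 to 2 for hepatocytes of 3DHLK against 3DHL and 7 to 16 for the difference of these changes, whose mitochondrial minus peroxisomal value ran over 0.155 to 0.247. The mitochondrial minus peroxisomal change moved with the mean of all probe sets to 0.0217 for LSECs of 3DHLK against 3DHL, 0.153 and -0.0651 for LSECs against hepatocytes in 3DHLK and 3DHL, 0.122 for KCs against hepatocytes and -0.0332 for CS against HM. Under cyclic loess it was -0.0969 for LSECs against hepatocytes in 3DHL. With peroxins counted in, it was 0.111 for LSECs of 3DHLK against 3DHL, -0.204 for KCs against hepatocytes, 0.0188 and 0.0181 for hepatocytes of 3DHL against HM and CS, and 0.264 for LSECs against KCs. With 1 array left out at a time under the main settings, the change was 0.0474 to 0.0616 for LSECs of 3DHLK against 3DHL. LSECs against hepatocytes gave 0.0166 to 0.108 in 3DHLK and -0.152 to -0.119 in 3DHL. KCs against hepatocytes gave -0.0934 to 0.0394, so that the sign depended on the setting, and CS against HM gave -0.017 to 0.00923. Hepatocytes of 3DHL gave 0.0934 to 0.127 against HM and 0.0955 to 0.13 against CS, and LSECs against KCs gave 0.0311 to 0.164. The cause of these moves was not tested. In KCs of 3DHLK against KC monolayers Cat (-0.0572), Acadvl (-0.0656), Hadha (-0.0363), Acsl1 (-0.0167) and Decr2 (-0.166) reversed under cyclic loess, Acadvl (-0.0332), Acsl1 (-0.0103), Decr2 (-0.105) and Pex14 (-0.0358) with housekeeping centring, and Pex16 (-0.121) with the mean of all probe sets, under which Pex16 also reversed in LSECs against hepatocytes of 3DHL (0.0848). Scaling moved the share of higher genes among all called: with cyclic loess to 77.8%, against 67.2%, in hepatocytes of 3DHLK against 3DHL and to 56.7%, against 68.2%, in KCs of 3DHLK against KC monolayers. With housekeeping centring it was 35.3% in that KC comparison, 56.0%, against 45.7%, in LSECs against hepatocytes of 3DHL, 37.0%, against 60.0%, and 33.6%, against 58.6%, in hepatocytes of 3DHL against HM and CS, and 76.1%, against 64.5%, in LSECs against KCs. The median of all genes moved by -0.15 (cyclic loess) and -0.526 (housekeeping) in the KC comparison and by -0.104 and -0.137 (housekeeping) in hepatocytes of 3DHL against HM and CS. Of the single-gene values recomputed, 4093 kept their side of the threshold, 378 lost the call, 15 gained one and these 11 reversed. Most of the genes recomputed were chosen because they were called in the main fit, so that few could gain a call. A change of sign was counted as a reversal only where the gene was called in the main fit or the alternative. The 4093 may thus hold uncalled values whose sign changed.

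Replicate numbers were not used to pair the arrays in the main fit. Same-numbered deviations correlated at -0.348 to 0.335, and only the 2 pairs of the KC comparison were all above 0.1 (0.218 and 0.244). For LSECs of 3DHLK against 3DHL they were 0.0656 to 0.114. With 2 or 3 arrays in a group these correlations cannot show whether arrays of the same number were paired. With the replicate block, 18 genes were called for LSECs of 3DHLK against 3DHL and 2 for hepatocytes. In the simulation, which left most genes without a difference, most changes of 0.5 were missed. With 1 spread shared by the groups, the simulated log2 change of 0.5 was called for 14% to 26% of genes, with 6.02% to 7.32% of calls false. With a spread of its own for each group it was called for 38% to 48%, but 10.9% to 18.6% of calls were false.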
